A study of Mus musculus with 2 samples.

Results

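The genes examined were 38 genes of the DNA damage response and of homologous repair, taken as a fixed list of names among the 20250 named protein-coding genes of the RNA-seq data. All 38 were found by their RefSeq transcripts, and each reached the minimum level used here, a summed FPKM of at least 1 in at least 1 library. FPKM, a count of fragments scaled to transcript length and to the number of mapped reads, is the unit the authors gave for each transcript, and for every gene it was summed over its coding transcripts. The study compared pre-pro-B cells, which have not yet committed to the B lineage, with committed pro-B cells, to follow gene activity across the step of B cell specification. The pre-pro-B library came from *Ebf1* -/- cells, which lack a transcription factor needed for B lineage entry and were derived from female fetal liver. The pro-B library came from *Rag2* -/- cells, which cannot rearrange immunoglobulin genes and were derived from the bone marrow of adult males. Both were on a C57BL/6 background and were grown on OP-9 stromal cells with Il-7 at 5 ng/mL, and the pre-pro-B cultures also received Scf and Flt3l, each at 10 ng/mL. There was 1 library per cell type, so stage, genotype, sex, age, tissue of origin and cytokines cannot be told apart, and no difference between the libraries has a replicate check or was tested here.

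Cells meet broken DNA with a relay. Sensor complexes find the break, the kinases Atm and Atr signal through Chek1 and Chek2, and ubiquitin ligases mark the surrounding chromatin. Homologous recombination then repairs the break from the sister chromatid, mostly during DNA replication, with Brca1, Brca2 and the strand exchange proteins as its helpers, while the Fanconi anaemia proteins unhook crosslinks at stalled forks and base excision and mismatch repair correct smaller lesions. B cell progenitors are known for making programmed breaks at their antigen receptor genes and for dividing rapidly between rounds of rearrangement.

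B lineage markers followed the labels. All 9 B lineage markers examined were higher in pro-B cells (summed FPKM 50.0 in pre-pro-B and 2326 in pro-B), and the 3 progenitor markers were at a summed FPKM of 944 and 2.82. Markers of other cells also differed, with sums of 37.6 and 0.137 for 3 T lineage genes (mostly *Cd3g*, at 36.8 in the pre-pro-B library) and of 61.0 and 6.52 for 5 myeloid genes. Of 18 OP-9 stromal markers, 12 reached the minimum level, of which 5 were at least 2-fold higher in the pro-B library and 1 lower. The 18 summed to 24.7 and 27.3, or to 8.83 and 27.0 without *Pdgfrb*, and *Dcn* and *Postn* were listed at 0 in both. *Ebf1* was measured at 64.0 FPKM in the *Ebf1* -/- library and at 273 in the other, and *Rag2* at 22.9 in the *Rag2* -/- library and at 34.5 in the other, values over the whole transcript that do not show which exons the reads came from. The part of admixed cells in the results below was not tested.

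Genes higher in pro-B cells were mainly those of Brca-dependent recombination, strand exchange and the Fanconi pathway, whereas the sensors and most signalling genes stayed within 2-fold. A gene was called when log2(FPKM + 1) differed by at least 1 between the libraries, a 2-fold difference on that scale. Of the 38 genes, 11 (28.9%) were called higher in pro-B cells, against 12.2% of the 10528 genes past the same minimum level. Of these 11, *Chek1* was the one outside the recombination and Fanconi groups. Only *Fancc* was called lower (2.63% of the 38), against 19.1% of all genes. With a pseudocount of 5 in place of 1, *Brca2*, *Fanca* and *Fancm* no longer passed the call, at 0.89, 0.75 and 0.89. The median log2 difference was 0.33 for the 38 genes and -0.14 for all genes. A positive difference was found for 28 of the 38 genes (73.7%) and for 42.6% of all genes. In the plot of levels by role, the long lines belong to *Chek1* and to genes of the Brca, strand exchange and Fanconi groups.

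**Figure D1:**
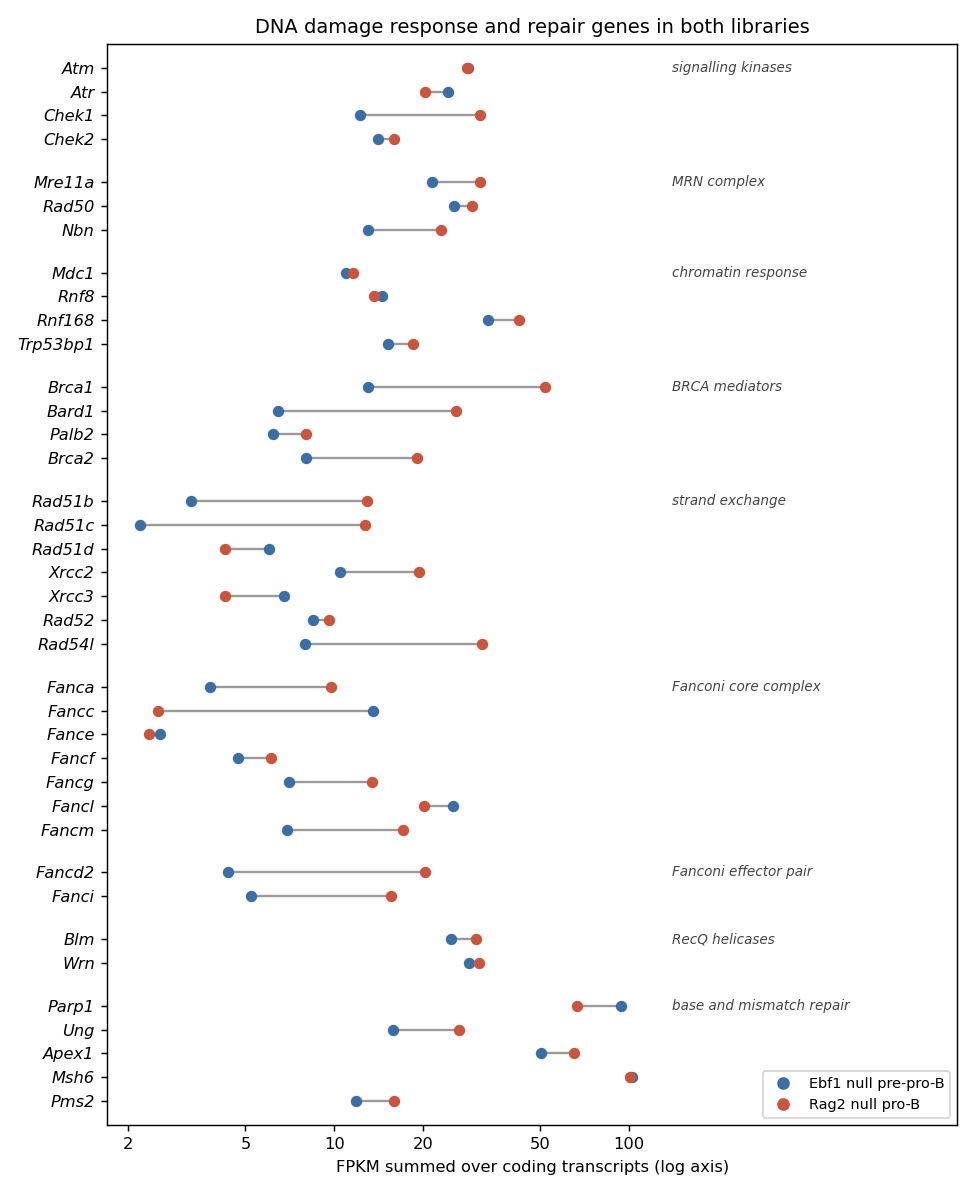
Summed FPKM of each of the 38 genes (log axis) in the pre-pro-B library (blue) and the pro-B library (red), ordered by role, with 1 library per cell type and therefore no error bars. The 11 genes called higher in pro-B cells lie between an FPKM of 2.19 and 13.0 in pre-pro-B cells and between 9.74 and 52.0 in pro-B cells, and *Fancc* runs the opposite way from 13.6 to 2.52.

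Proliferation markers differed in the same direction, and more uniformly. Of 24 such genes, 22 were called higher in pro-B cells and 0 lower, with a median log2 difference of 1.80 and a range from 0.99 to 2.78. *Mki67*, which marks cycling cells, measured 81.1 FPKM in pre-pro-B and 349 in pro-B cells, and *Top2a*, the topoisomerase of chromosome segregation, had 138 and 622. The lowest of the list, *Ccne1*, had 6.53 and 14.0, and with *Mcm4* (57.9 and 117, chosen after its values were seen) it fell just short of the call. The part of cell cycling in the differences of the repair genes was not tested, and in bulk RNA more cycling cells and more RNA per cell cannot be told apart.

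**Figure D2:**
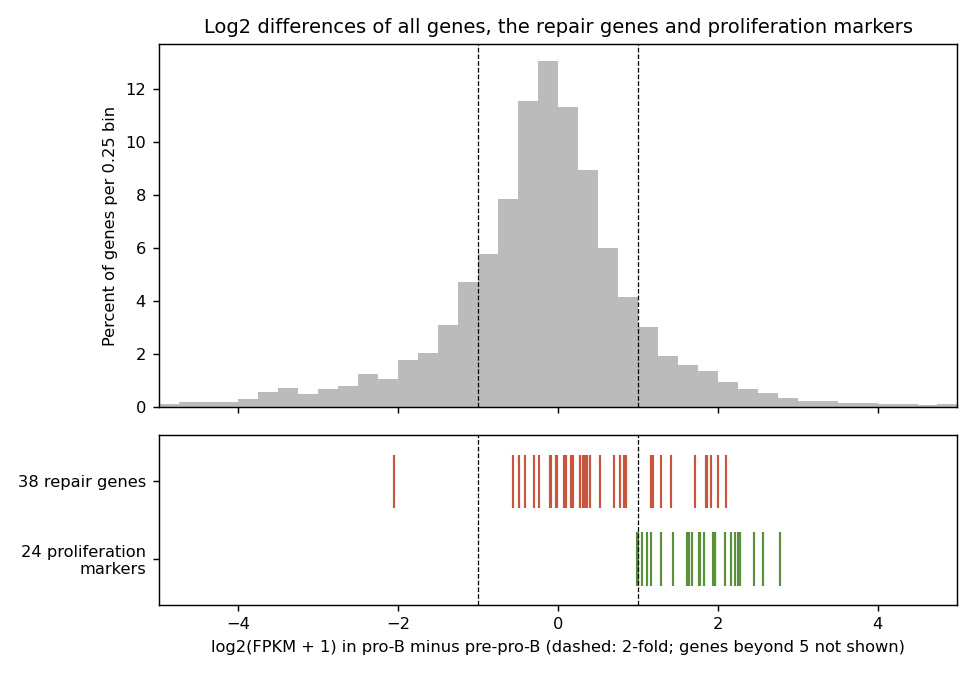
Top, the percent of the 10528 genes in each bin of the log2 difference, pro-B minus pre-pro-B. Bottom, each of the 38 repair genes (red) and of 24 proliferation markers (green) as a line, with dashed lines at 2-fold and genes beyond 5 not shown. The repair genes spread from -2.05 to 2.11 with a median of 0.33, and the proliferation markers lie between 0.99 and 2.78.

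Among the signalling kinases, 1 of 4 was called. *Chek1* (chromosome 9 of mm9, 36516067 to 36534650), the checkpoint kinase that Atr activates at stalled forks, measured 12.2 FPKM in the pre-pro-B library and 31.2 in the pro-B library, a 2.55-fold difference and a log2 difference of 1.28. Its activator *Atr* had 24.3 and 20.4. *Atm*, the apical kinase at double-strand breaks, had 28.4 and 28.1, the closest agreement of the 4 kinases in ratio (0.991). *Chek2*, the kinase downstream of Atm, had 14.1 and 15.95. The 3 kinases other than *Chek1* thus differed by at most 1.19-fold, and *Chek1* was the lowest of the 4 in the pre-pro-B library and the highest in the pro-B library.

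Among the sensors and the genes of the chromatin response, 0 of 7 were called. In the MRN complex, which binds and begins to trim broken ends, the nuclease *Mre11a* measured 21.5 FPKM in pre-pro-B and 31.3 in pro-B cells, and its partner *Rad50*, the zinc-hook ATPase, had 25.6 and 29.3. *Nbn*, the subunit that recruits Atm, had 13.0 and 23.1, the largest log2 difference of the 3 at 0.78. Of the genes that act on chromatin around the break, the adaptor *Mdc1* had 10.97 and 11.6. The ubiquitin ligases *Rnf8* and *Rnf168*, which act one after the other on histones, had 14.5 and 13.6 and 33.2 and 42.5, respectively. *Trp53bp1*, the 53bp1 protein that restrains end trimming, had 15.2 and 18.5. None of these 4 chromatin genes differed by more than 0.35 on the log2 scale.

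In the Brca group, 3 of 4 genes were called higher in pro-B cells. *Brca1* (chromosome 11, 101350078 to 101413269), which promotes end resection, measured 13.0 FPKM in the pre-pro-B library and 52.0 in the pro-B library, 3.99-fold higher. *Bard1* (chromosome 1, 71074072 to 71149720), its obligate ubiquitin ligase partner, had 6.43 and 25.8, 4.02-fold higher. *Brca2* (chromosome 5, 151325205 to 151372321), which acts on the resected single-stranded DNA, had 7.99 and 19.1, 2.39-fold higher. *Palb2*, which bridges Brca1 and Brca2, did not go with them, with an FPKM of 6.19 and 7.99 and a log2 difference of 0.32. Both Brca genes and *Bard1* were thus called higher, and the gene of the bridging protein was within 2-fold.

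The strand exchange genes, whose proteins assist the pairing of a broken end with its template, went in both directions. *Rad51c* (chromosome 11, 87190147 to 87218456) had the lowest pre-pro-B level of all 38 genes at an FPKM of 2.19, and had 12.7 in pro-B cells, a 5.83-fold difference that was the largest ratio of the list. *Rad51b* (chromosome 12, 80398338 to 80904257) had 3.26 and 12.9, 3.97-fold higher. *Xrcc2* had 10.5 and 19.4, short of the call at a log2 difference of 0.83. *Rad51d* and *Xrcc3* were on the other side, with 6.01 and 4.26 for *Rad51d* and 6.76 and 4.25 for *Xrcc3*, both within 2-fold. Rad51b, Rad51c, Rad51d and Xrcc2 form one known complex and Rad51c with Xrcc3 another, so the genes of each complex differed unequally between the libraries. *Rad54l* (chromosome 4, 115766869 to 115796295), the translocase that promotes strand invasion, had 7.94 and 31.7, 3.99-fold higher. *Rad52*, an annealing protein, had 8.48 and 9.62.

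In the Fanconi anaemia pathway, the effectors differed more than most of the core complex. *Fancd2* (chromosome 6, 113481676 to 113547011) and *Fanci* (chromosome 7, 86536815 to 86595151) encode the pair that is ubiquitinated at a crosslink. *Fancd2* measured 4.35 FPKM in the pre-pro-B library and 20.4 in the pro-B library, 4.68-fold higher, and *Fanci* had 5.22 and 15.6, 2.995-fold higher. The core complex, the ligase that modifies this pair, had 2 genes called higher, 1 called lower and 4 within 2-fold. *Fanca* had 3.78 and 9.74, and *Fancm*, the helicase that anchors the complex to DNA, had 6.92 and 17.0. *Fancg*, a partner of Fanca, had 7.01 and 13.4, at a log2 difference of 0.85. The catalytic subunit *Fancl* had 25.2 and 20.2, the highest core gene in both libraries, while *Fancf* had 4.71 and 6.10 and *Fance* had 2.57 and 2.35.

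*Fancc* (chromosome 13, 63406017 to 63598586), which works beside Fance and Fancf in the core complex, was the single gene called lower in pro-B cells. It measured 13.6 FPKM in the pre-pro-B library and 2.52 in the pro-B library, 5.39-fold lower, with a log2 difference of -2.05. The next most negative difference in the list was that of *Xrcc3*, at -0.56. In pre-pro-B cells *Fancc* was thus second among the 7 core genes, behind *Fancl*, and in pro-B cells only *Fance* was lower.

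The helicases and the genes of base and mismatch repair had 0 of 7 called. *Blm*, which dissolves recombination intermediates, measured 24.9 FPKM in pre-pro-B and 30.3 in pro-B cells, and *Wrn*, a related RecQ helicase with nuclease activity, had 28.7 and 30.9. *Msh6*, the mismatch recognition subunit, was the most abundant of the 38 genes in both libraries, with 102 and 101. *Parp1*, which senses nicks and makes poly(ADP-ribose), had 94.0 and 66.5, a log2 difference of -0.49. *Apex1*, the abasic site endonuclease, had 50.4 and 65.1. *Ung*, the uracil glycosylase, had 15.8 and 26.5, and *Pms2*, the endonuclease partner in mismatch repair, had 11.8 and 15.98. *Msh6*, *Parp1* and *Apex1* were the 3 most abundant of the 38 genes in both libraries.

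By their pre-pro-B level, most of the genes called higher were among the less abundant of the list. The 11 genes with the highest FPKM in pre-pro-B cells, all at 21.5 or more, had log2 differences between -0.49 and 0.52. Of the 19 genes with the lowest pre-pro-B FPKM, 9 were called higher, and of the other 19 genes, 2 were. As the pre-pro-B value enters both the level and the difference, the genes were also divided by the mean log level over both libraries, which gave 8 and 3 genes called higher. Divided by pro-B FPKM, the lower 19 genes held 6 of those called higher and the other 19 held 5. The order of the 38 levels was partly kept between the libraries (Spearman's rho of 0.71 across genes, which are not independent replicates). In pre-pro-B cells 18 of the 38 genes were above the median FPKM of all genes past the minimum level (12.9), and in pro-B cells 29 were above it (11.7).

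The ratio of partner genes within a library does not depend on a factor that scales a whole library. The FPKM of *Brca1* was 2.03 times that of *Bard1* in the pre-pro-B library and 2.02 times in the pro-B library, so the pair kept the same proportion while each differed about 4-fold. *Chek2* to *Atm* (0.496 and 0.567) and *Blm* to *Wrn* (0.866 and 0.983) also moved little. The ratio of *Chek1* to *Atr* was 0.504 in the pre-pro-B library and 1.53 in the pro-B library, and that of *Rad51c* to *Xrcc3* was 0.324 and 3.001. *Brca2* to *Palb2* was 1.29 and 2.39. Of 12 such pairs, chosen with their values known, 7 had ratios within 1.5-fold of each other between the libraries.

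**Figure D3:**
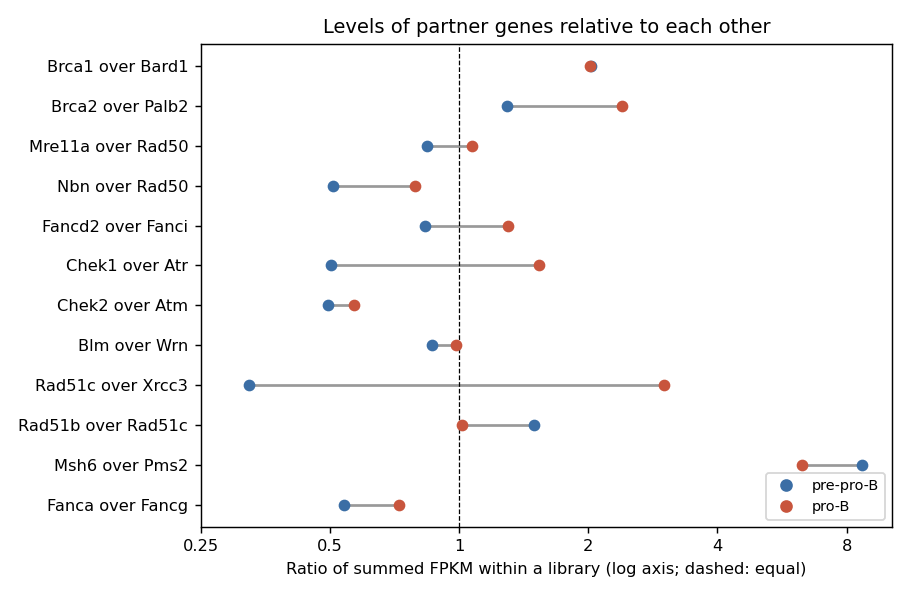
Ratio of summed FPKM for 12 pairs of genes whose proteins act together (log axis) in pre-pro-B (blue) and pro-B cells (red), 1 library each. The points of *Brca1* over *Bard1* coincide at 2.03 and 2.02, and those of *Rad51c* over *Xrcc3* lie farthest apart at 0.324 and 3.001.

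Counting error and Cuffdiff's intervals gave unlike widths for these values. At the stated depth of about 90000000 reads per library, the summed FPKM correspond to roughly 461 fragments or more for each of the 38 genes in pre-pro-B cells and 426 or more in pro-B cells, for which counting alone would give an error of at most 4.85% of the value. Cuffdiff's 95% intervals were far wider, under a blind setting that estimated the spread by treating both libraries as replicates. Their width therefore includes differences between the cell types and is not a spread between replicates. For *Brca1* the interval ran from 0.678 to 33.7 in the pre-pro-B library and from 5.46 to 134.6 in the pro-B library, and for *Bard1* it was 0.950 to 11.9 and 5.98 to 45.6. Among the 28 genes with a single transcript, the intervals of the libraries overlapped for all 28, against 4.70% of 8093 single-transcript genes whose intervals did not overlap. A sum over several transcripts has no interval of its own.

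For 10 of the 38 genes the FPKM was divided between several coding transcripts. Both *Brca2* transcripts were higher in pro-B cells, NM_009765 at 5.48 and 13.1 and NM_001081001 at 2.52 and 6.06, and the share of NM_009765 was 68.5% in pre-pro-B and 68.3% in pro-B cells. Both abundant transcripts of *Rad54l* were higher as well, NM_001122958 at 4.91 and 17.6 and NM_009015 at 3.03 and 14.1. The low *Fancc* level in pro-B cells was that of its main transcript, NM_007985, at 12.8 (interval 0.277 to 25.99) and 2.22 (interval 0 to 5.71). In these 3 genes each transcript above the level of 3 fragments went the same way as the sum.

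In *Wrn*, *Rad51b* and *Ung* the proportions of the transcripts differed. The summed FPKM of *Wrn* was alike, but NM_001122822 made up 26.6% of it in the pre-pro-B library and 61.2% in the pro-B library, at 7.62 FPKM (interval 0.00614 to 21.9) and 18.9 (interval 0.543 to 41.9). The other transcript, NM_011721, had 21.1 (interval 1.09 to 43.4) and 12.0 (interval 0.0468 to 30.3), so the sign of the *Wrn* difference turned from 0.10 to -0.77 when only the more abundant transcript was used. For *Rad51b*, NM_001252562 made up 10.97% in pre-pro-B and 40.5% in pro-B cells. For *Ung*, NM_001040691 was at 2.58 FPKM (interval 0 to 10.3) in the pre-pro-B library and at 0.000725 in the pro-B library, under the level of 3 fragments (0.0172), while NM_011677 had 13.3 and 26.5. Cuffdiff divides reads shared by transcripts among them. The intervals of the *Wrn* and *Rad51b* transcripts and of NM_011677 overlapped between the libraries. For NM_001040691 the pro-B interval was listed as 0 to 0, below its own FPKM, so its overlap with the pre-pro-B interval carries no information.

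**Figure D4:**
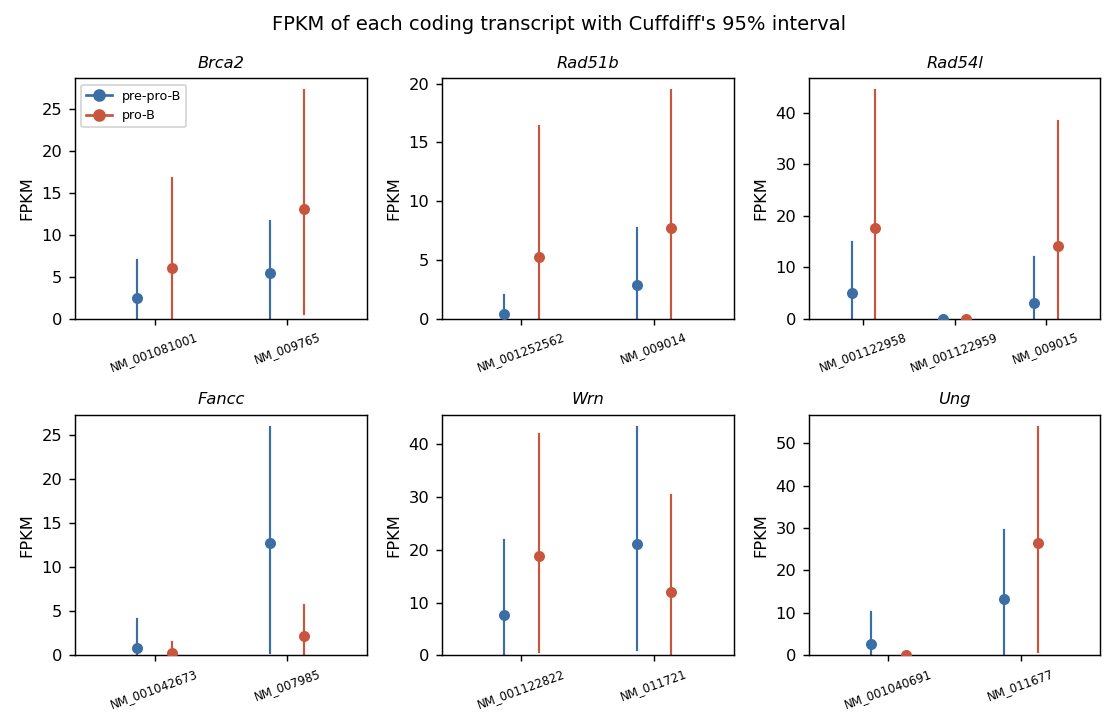
FPKM of each coding transcript of 6 genes in pre-pro-B (blue) and pro-B cells (red), points with Cuffdiff's 95% interval as a line. Both *Brca2* transcripts are higher in pro-B cells, and the *Wrn* transcripts cross, NM_001122822 from 7.62 to 18.9 and NM_011721 from 21.1 to 12.0.

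Several genes share their locus with a neighbor, which bears on how reads were assigned. The library was strand-specific, and the authors aligned it with the strand set. *Msh6*, *Fancl*, *Fanci*, *Trp53bp1*, *Xrcc3*, *Rad54l*, *Fanca*, *Atr* and *Apex1* lie in loci that Cuffdiff joined with another gene, among them *Tubgcp4* beside *Trp53bp1* (an FPKM of 14.0 in pre-pro-B and 38.4 in pro-B cells) and *Lrrc41* beside *Rad54l* (15.2 and 12.4). Of the genes called, *Rad54l* is joined with *Lrrc41* as given above, *Fanci* with *Polg* (8.91 and 13.1) and *Fanca* with *Zfp276* (3.63 and 3.26). The part of the joined loci in the values was not tested.

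Promoter sequence was examined because 11 of the genes differed in the same direction, and E2F factors are known regulators of genes used in DNA replication. RefSeq promoter windows, from 250 bases before to 50 bases after each start, were available for 32 of the 38 genes. They were searched on both strands for an E2F-like motif (TTTCCCGC, TTTGGCGC, TTTCGCGC or TTTGCCGC), and matches of different motifs were allowed to overlap. The motif was found in 7 of the 32 genes (21.9%), in 2.60% of all 27025 genes with a window and in 5.13% of the 8581 among them that were past the minimum level. It was present in 3 of 10 genes called higher and in 4 of 21 within 2-fold, so it occurred on both sides of the call. Among all genes called higher that had a window, 85 of 1030 held it (8.25%). *Fancd2* was the gene called higher that had no window. The matches are printed as 30 bases in gene orientation, 5′ to 3′, with the motif in capitals. The windows are those of RefSeq on GRCm38.p6 and were placed on mm9 (NCBIM37) by an exact match, which gave the positions listed.
Chek2 (chr5:111268839-111268868, plus strand): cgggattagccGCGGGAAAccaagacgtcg
Mdc1 (chr17:35978416-35978445, plus strand): tcttcagcctgTTTCCCGCcggtagccgca
Bard1 (chr1:71149737-71149766, minus strand): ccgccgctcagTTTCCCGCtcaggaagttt
Brca2 (chr5:151325017-151325046, plus strand): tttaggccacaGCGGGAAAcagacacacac
Rad51c (chr11:87218443-87218472, minus strand): cccccgcgaggGCGGGAAAagcaaggggtc
Rad51c (chr11:87217979-87218008, minus strand): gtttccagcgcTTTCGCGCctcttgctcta
Fancg (chr4:43023207-43023236, minus strand): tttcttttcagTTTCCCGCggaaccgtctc
Msh6 (chr17:88374394-88374423, plus strand): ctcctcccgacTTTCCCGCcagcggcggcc

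Distances were counted from the RefSeq start of each window, which can differ from the end of the gene positions given above, as it does for *Bard1*. In these windows, the motif of *Bard1* began 209 bases before the start, that of *Brca2* 168 bases before it, and that of *Chek2* 152 bases before it. None of these was in an annotated exon on mm9. The match of *Mdc1* lay 16 bases before the start, also outside any exon. *Rad51c*, which has windows at 2 starts, had a match 5 bases before one start, with 3 of its 8 bases in sequence annotated on mm9 as untranslated exon, and a match 12 bases after the other, wholly in such sequence. Those of *Fancg* (52 bases before the start) and *Msh6* (16 bases after it) were likewise wholly in untranslated exon sequence. *Bard1*, *Brca2* and *Rad51c* were among the genes called higher, with pro-B to pre-pro-B ratios of 4.02, 2.39 and 5.83, whereas *Msh6*, *Mdc1* and *Chek2* had ratios of 0.982, 1.05 and 1.13.

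The shares of the other motifs are given against all genes past the minimum level. A gene with several windows was counted if any of them held the motif. Of the 32 genes, 19 had a CCAAT box (59.4%, against 43.4%), and 7 had the Ebf1-like letters CCCNNGGG (21.9%, against 20.8%). The E protein letters CAGGTG were in 4 genes (12.5%, against 19.9%), and the cell cycle element TTTGAA was in 3 genes (9.38%, against 14.2%). Among the 19 proliferation markers with a window, 6 held the E2F-like motif (31.6%) and 14 a CCAAT box (73.7%). A match describes the letters in this window and shows no binding.

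The rest of the pathway was described with 6 lists holding 127 genes past the minimum level, of which 37 (29.1%) were called higher and 6 (4.72%) lower, beside 12.2% and 19.1% of all genes. Replication checkpoint genes had 4 of 16 called higher and 1 lower, with a median log2 difference of 0.64. *Clspn*, the adaptor through which Atr activates Chek1, measured 9.15 FPKM in pre-pro-B and 44.2 in pro-B cells, and *Rpa3*, a subunit of the single-strand binding complex, had 77.4 and 253. *Topbp1*, the activator of Atr, had 64.2 and 122, within 2-fold. *Tipin* (56.8 and 187), of the fork protection complex, and *Rpa2* (18.8 and 53.002, chosen after its values were seen) were the others called higher. *Rad9b*, a paralog of a checkpoint clamp subunit, was the one called lower, at 5.95 and 0.615.

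Break signalling and resection genes had 5 of 22 called higher and 0 lower. *H2ax*, the histone variant that Atm phosphorylates around a break, measured 47.4 FPKM in pre-pro-B and 239 in pro-B cells, 5.05-fold higher, and *Rif1*, which acts with 53bp1, had 35.9 and 84.1. The other 3, all resection factors and chosen after their values were seen, were *Rbbp8* (20.1 and 46.5), *Exo1* (5.89 and 16.2) and *Dna2* (5.203 and 20.9). *Rnf169* had the most negative difference of the list, at 24.2 and 13.0. *H2ax* was thus called higher, whereas *Mdc1*, whose protein binds the phosphorylated histone, was within 2-fold.

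The list of other homologous recombination genes had 11 of 25 called higher and 1 lower, the largest share of the 6 lists at 44.0%. The list was broad, and its genes need not act only in recombination. Those called higher included *Polq* (3.77 and 13.6) and *Hells* (30.3 and 97.6), chosen after their values were seen. *Rad51ap1*, which stimulates strand pairing, had 7.36 in pre-pro-B and 37.9 in pro-B cells. *Sfr1*, which works with Swi5 in strand exchange, was called lower, at 150 and 62.7, while its partner *Swi5* had 112 and 221. *Sem1*, the small acidic partner of Brca2 and a proteasome subunit, was the most abundant at 458 and 579. Among other Fanconi genes, 5 of 14 were called higher and 0 lower, from *Cenps* at 1.07 and 12.0 to *Fan1* at 5.603 and 2.84, and *Usp1*, which removes ubiquitin from Fancd2, had 32.4 and 70.0. *Fancb* (6.26 and 18.6), *Ube2t* (4.98 and 19.9) and *Rev1* (10.9 and 32.0), chosen after their values were seen, were the other 3 called higher.

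Mismatch and base excision repair genes outside the 38 had 8 of 27 called higher and 1 lower, and of the 5 such genes among the 38, 0 were called. *Neil1*, a glycosylase for oxidized bases, measured 2.13 FPKM in pre-pro-B and 35.1 in pro-B cells, the largest difference over the 6 lists at 3.53 on the log2 scale. *Pcna*, the sliding clamp of replication, had 59.2 and 206, and *Fen1*, the flap endonuclease, had 27.3 and 67.4. *Tdg*, the thymine glycosylase, was called lower at 7.11 and 0.632. Reads that match several places were divided among them, so genes with close genomic copies are uncertain.

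**Figure D5:**
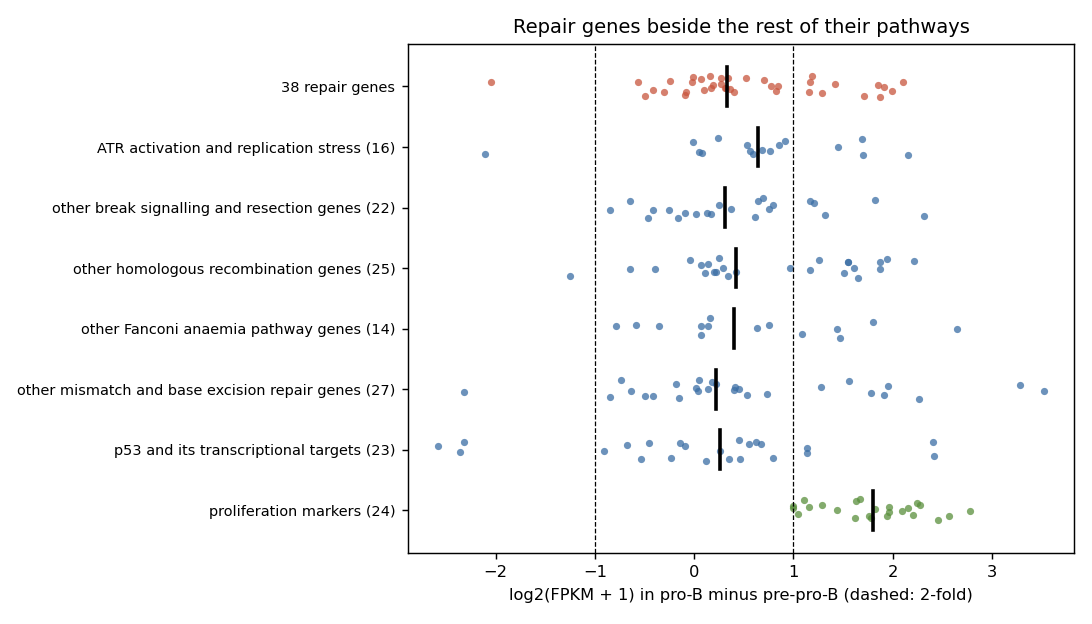
Log2 difference, pro-B minus pre-pro-B, of each gene past the minimum level for the 38 repair genes (red), 6 further lists (blue) and the proliferation markers (green), with the number of genes in parentheses, medians as black bars and dashed lines at 2-fold. Medians of the 6 lists lie between 0.22 and 0.64, that of the repair genes at 0.33 and that of the proliferation markers at 1.80.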

How the data were processed

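RNA-seq was measured in 1 library of *Ebf1* -/- pre-pro-B cells and 1 of *Rag2* -/- pro-B cells (rRNA-depleted total RNA, 97 nt single-end strand-specific reads, about 90000000 per library, RNA integrity number 9.9). The authors aligned quality-trimmed reads to mm9 with TopHat (1.5 in the submitters' processing notes), allowing up to 20 alignments per read, and deposited FPKM per RefSeq transcript with 95% limits from Cuffdiff 2.1.1, which corrected for bias and for reads with several alignments, needed at least 10 alignments to test a locus and did not rescale the libraries. A further deposited table holds the authors' fold changes and p-values; it was not used, nor were its 2 columns of per-sample values.

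Of 26968 coding rows, 26555 were named through a RefSeq table of GRCm38.p6, and the FPKM were summed per gene with Python 3.11.15, numpy 2.4.6 and pandas 2.3.3. Differences used log2(FPKM + 1), genes at a summed FPKM of at least 1 in at least 1 library, and a 2-fold call. Fragments were approximated from FPKM, transcript length and the stated depth, and 3 fragments were taken as the floor. Gene positions are those of GENCODE M1 on mm9 (NCBIM37). The summing and calling steps were tested on simulated data. With 1 library per group, no test was run. The members, lists, motifs and pairs were chosen with earlier results of these data known. Genes named were all members and, of each other list, the highest and lowest difference and up to 3 of the most abundant. The alternatives were other pseudocounts, filters, scalings, transcript choices and the removal of rows with a failed status or a duplicate location. Some items are counted in the lists but not reported here by name.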

Additional observations from a re-analysis of the deposited data

Results flagged for a closer look

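*Fance* has 2 non-coding RefSeq transcripts besides its coding ones, which were left out of the sums and had values above the level of 3 fragments. NR_028296 measured 0.622 FPKM in the pre-pro-B library and 0.222 in the pro-B library. NR_028297 measured 0.650 FPKM in the pre-pro-B library and 0.00104 in the other, under the level of 3 fragments (0.0168). The coding transcript NM_001163820 was at 0.475 in the pre-pro-B library and listed at 0 in the other, while NM_001163819 had 2.097 and 2.35.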

How the results depend on the processing

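No paired analysis was possible because each cell type has 1 library. Over 10 alternatives the number of the 38 genes called higher stayed between 8 and 11 and the number called lower stayed at 1. Of 380 recomputed differences, 377 kept their side of the 2-fold line and 3 lost the call, those of *Brca2* (0.89), *Fanca* (0.75) and *Fancm* (0.89) with a pseudocount of 5. Many of the 380 could not change. All 38 genes passed every filter, 0 had a failed status and none had a row with a duplicate location, so those alternatives left each difference as it was. The choice of transcript could not change the 28 genes with 1 transcript. The sign changed in at least 1 alternative for 5 genes, each with a difference of at most 0.10 in size (*Mdc1*, *Atm*, *Msh6*, *Fance* and *Wrn*). TPM scaling moved the median of all genes by -0.11 and the median of the 38 genes to 0.26. Calls of all genes were 1284 higher and 2013 lower, and 785 and 996 with a pseudocount of 5. Without a pseudocount 2074 genes were higher, and with an FPKM of at least 1 in both libraries 998 were lower. Of the 6 further lists, 6 genes were lower, and 3 with an FPKM of at least 1 in both libraries, where fewer genes were counted. The stromal markers called higher varied from 0 to 13. Of the calls of all genes, 38.9% were of higher genes, and 47.9% with an FPKM of at least 1 in both libraries. With 1 library per cell type, the spread between replicates is not known for any of these comparisons.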

Other observations

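Genes of the p53 response, the transcriptional output of the damage checkpoint, were called in both directions at shares near those of all genes. Of 23 genes past the minimum level, 4 (17.4%) were called higher in pro-B cells and 3 (13.0%) lower, beside 12.2% and 19.1% of all genes, with a median log2 difference of 0.26. *Rrm2b*, the p53-inducible ribonucleotide reductase subunit, measured 13.8 FPKM in the pre-pro-B library and 78.1 in the pro-B library, and *Trp53inp1*, a p53-induced stress protein, had 171 and 377. *Pmaip1*, which encodes the death protein Noxa, had 53.1 and 8.07. The others called, chosen after their values were seen, were *Gadd45a* (5.18 and 31.9) and *Zmat3* (4.56 and 11.3), higher, and *Xpc* (47.0 and 8.33) and *Perp* (4.11 and 0.0284), lower. The abundant *Ccng1* (98.6 and 145) and *Mdm4* (85.8 and 109), an inhibitor of p53, were within 2-fold.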
